A study of Mus musculus with 19 samples.

Results

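The clustered replication-dependent histone genes carry symbols that begin with Hist1h, Hist2h, Hist3h or Hist4h. Of 67 such protein-coding genes in the mouse annotation, 45 had at least 10 raw counts in 2 or more of the 19 libraries, out of 55401 gene identifiers counted in all, and these 45 are described here. They comprised 5 of 6 H1 genes, 5 of 18 H2A genes, 14 of 18 H2B genes, 10 of 12 H3 genes and 11 of 13 H4 genes. On GRCm38/mm10, 39 of them lay on chromosome 13 between positions 21715763 and 23764406, 3 on chromosome 3, 2 on chromosome 11 and 1 on chromosome 6. All 45 also passed the filter on low counts that preceded the gene tests.

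Histones H2A, H2B, H3 and H4 form the protein core around which nucleosomal DNA is wound, and the linker histone H1 binds where the DNA enters and leaves that core. The clustered genes are mostly without introns, although 3 of the 45 (Hist1h2bc, Hist1h2be and Hist1h2bp) have a spliced transcript in the annotation. They are mostly transcribed during S phase, when new DNA has to be packed. Their mRNAs typically end in a short stem-loop that is bound by the stem-loop binding protein SLBP, and they are cut just after it with the help of the U7 small nuclear ribonucleoprotein instead of receiving a poly(A) tail. Read-through to a downstream poly(A) site gives longer polyadenylated forms of some of these mRNAs, mainly in cells that leave the cell cycle. The libraries described here were made from RNA selected with poly(T), so the counts hold only what that selection retained. Polyadenylated forms and carried-over mRNA without a tail cannot be told apart in them.

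The cells were wild-type C2C12, a mouse myoblast line, and all groups came from that line. They received DMSO as the vehicle or 100 nM thapsigargin, which blocks SERCA, the pump that moves calcium into the endoplasmic reticulum (ER), and so disturbs protein folding there, for 2, 6 or 12 h. A recovery group had 100 nM thapsigargin for 6 h and then 48 h in drug-free medium. Each group held 3 libraries, except DMSO 12 h and thapsigargin 12 h with 2 each. The labels do not say that replicates were separate cultures, so the p-values may measure technical spread only. No vehicle library was harvested as late as the recovery libraries, so for that group withdrawal of the drug and the longer culture cannot be told apart.

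The libraries held 17.3 to 41.0 M reads assigned to genes (M, 1e6 reads). Levels are given as counts per 1e6 gene reads (CPM) with library sizes scaled by TMM. Myoblast genes were present: Myod1, a master regulator of the muscle lineage, had a median of 90.6 CPM over the 19 libraries, and Des, a muscle filament protein, 1103 CPM. The macrophage marker Adgre1 and the epithelial marker Epcam were at 0 in all 19 libraries, but other genes of their lists were not. Cd68 of the macrophage list had a median of 4.15 CPM, and the epithelial genes Krt8 and Krt18 reached 13.9 and 10.6 CPM. The epithelial list summed to 1.54 CPM on average in DMSO 6 h and 20.4 CPM in thapsigargin 6 h. Of the adipocyte genes, Pparg and Lpl had medians of 17.7 and 25.7 CPM, and Adipoq and Fabp4 of 0 and 0.275 CPM. Hspa5, the ER chaperone BiP that is induced by ER stress, lay at 906 to 1489 CPM with DMSO for 6 h and at 11660 to 14120 CPM with thapsigargin for 6 h.

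Several libraries stood apart in ways that touch histone mRNA. Mitochondrially encoded genes took 15.8% of gene reads in DMSO 2 h replicate 3 and 14.9% in recovery replicate 1, against 1.41 to 3.07% in the other 17. Rn7sk, a small nuclear RNA without a poly(A) tail, stood at 12.7, 0.0937 and 0.215 CPM in recovery replicates 1, 2 and 3, and at 0.0916, 0.187 and 1.27 CPM in DMSO 6 h replicates 1, 2 and 3. It was also high in drug libraries, with 0.303, 1.15 and 1.19 CPM in thapsigargin 6 h and 1.12 and 1.25 CPM in thapsigargin 12 h, where DMSO 12 h had 0.162 and 0.277 CPM. At 2 h it lay between 0.108 and 0.251 CPM in both groups. Its part in the histone differences at 6 h and 12 h was not tested. In recovery replicate 1 the level of a histone gene over the mean of replicates 2 and 3 had a median ratio of 11.4 across the 45, against 0.754 across all genes with a value. In DMSO 6 h replicate 3 that ratio over replicates 1 and 2 had a median of 3.19 across the 45, against 0.951 across all genes. For main results that rest on recovery replicate 1, DMSO 6 h replicate 3 or DMSO 2 h replicate 3, values without them are therefore given too, though not for every gene.

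The stem-loop that replaces the poly(A) tail is the shared sequence of these mRNAs, and the annotated length that follows it is set beside the values below. A stem-loop of 16 bases, with 6 base pairs and a loop of 4 bases, was found in the GENCODE M21 transcripts of 34 of the 45 genes. The following 12 include Hist1h4j, which no comparison called, for a form of its own, and otherwise stand for genes that the results turn on. Each is written with 5 bases on either side, 5′ to 3′ on the gene's strand, as DNA, and the capitals mark the stem-loop.
Hist1h1c: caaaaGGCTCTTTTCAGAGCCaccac
Hist1h1d: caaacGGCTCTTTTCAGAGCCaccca
Hist3h2a: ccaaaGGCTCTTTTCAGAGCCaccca
Hist3h2ba: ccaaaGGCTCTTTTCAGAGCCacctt
Hist2h3c2: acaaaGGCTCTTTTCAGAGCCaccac
Hist1h4i: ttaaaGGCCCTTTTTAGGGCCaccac
Hist1h2bj: ccaaaGGCTCTTTTCAGAGCCacgca
Hist1h2bk: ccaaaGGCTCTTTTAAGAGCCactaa
Hist1h3c: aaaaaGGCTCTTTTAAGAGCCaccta
Hist1h3g: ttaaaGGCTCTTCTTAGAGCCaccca
Hist1h4j: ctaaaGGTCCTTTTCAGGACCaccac
Hist4h4: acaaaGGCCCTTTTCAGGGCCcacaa

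On GRCm38/mm10 the capitals lie at chr13:23739512-23739527 on the plus strand for Hist1h1c, chr13:23555787-23555802 on the plus strand for Hist1h1d, chr11:58955172-58955187 on the plus strand for Hist3h2a and chr11:58949349-58949364 on the plus strand for Hist3h2ba. Those of Hist2h3c2 lie at chr3:96238485-96238500 on the minus strand, those of Hist1h4i at chr13:22040966-22040981 on the minus strand and those of Hist1h2bj at chr13:22043638-22043653 on the plus strand. Hist1h2bk has them at chr13:22036300-22036315 on the plus strand, Hist1h3c at chr13:23745047-23745062 on the minus strand and Hist1h3g at chr13:23535889-23535904 on the plus strand. Hist1h4j has them at chr13:21735437-21735452 on the plus strand and Hist4h4 at chr6:136803998-136804013 on the minus strand.

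The form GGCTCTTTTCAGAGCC occurred in 18 genes, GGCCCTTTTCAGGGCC in 6, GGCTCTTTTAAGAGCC in 5 and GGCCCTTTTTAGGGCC in 2. Hist1h4a, Hist1h3g and Hist1h4j each had a form of their own. In the annotation, 21 genes ran on for at least 100 bases after the loop and are called long-tailed here, among them Hist1h1c (840 bases), Hist1h1d (4884), Hist3h2a (1643), Hist3h2ba (169), Hist2h3c2 (377) and Hist1h4i (330). The 13 short-tailed genes ended sooner, such as Hist1h2bj (23 bases), Hist1h2bk (30), Hist1h3g (47) and Hist1h3c (74). The nearest to the limit were Hist1h4a with 108 bases inside it and Hist1h3c outside it. No stem-loop was annotated for the other 11, which include Hist1h1a, Hist1h1b, Hist1h2bc, Hist1h3h and Hist2h2be. For 9 of the 11 the annotated 3′ UTR is at most 48 bases long, and 7 have none, so the group reflects where the annotation stops and is no class of mRNA.

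Promoters of 40 of the 45 genes, from 250 bases before to 50 bases after the start, were matched in RefSeq on GRCm38.p6. Motifs were searched on both strands, and 27025 promoters of the same length served for comparison. The CCAAT box, read by NF-Y, occurred in 82.5% of the histone promoters and 37.9% of all promoters. It was in every matched H1, H2A, H2B and H3 promoter and in 3 of 10 H4 promoters. The TATA box TATAAA stood in 60% against 14.2%, and the octamer ATTTGCAT, bound by Oct-1, in 3 of 5 H2A and 4 of 12 H2B promoters against 1.75% of all. The H1 box AAACACA occurred in 4 of 5 H1 promoters, 1 of 12 H2B promoters and 7.14% of all. TGATGNAA, the composite element of C/EBP and ATF4, was in 1 of 40 histone promoters against 4.06% of all, and the cyclic AMP response element TGACGTCA in 3 of 40 against 1.88%.

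The 140 bases before the start are shown for 3 H1 genes and Hist3h2a because they rose with the drug at 2 h. Capitals mark matches to these 6 motifs on either strand, and the 6 motifs share no letters here.
Hist1h1a: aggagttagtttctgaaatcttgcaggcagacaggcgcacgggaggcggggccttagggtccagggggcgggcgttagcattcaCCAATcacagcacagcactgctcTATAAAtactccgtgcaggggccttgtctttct
Hist1h1b: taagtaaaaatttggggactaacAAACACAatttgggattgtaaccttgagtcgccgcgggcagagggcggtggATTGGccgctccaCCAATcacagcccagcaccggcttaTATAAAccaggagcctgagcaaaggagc
Hist1h1c: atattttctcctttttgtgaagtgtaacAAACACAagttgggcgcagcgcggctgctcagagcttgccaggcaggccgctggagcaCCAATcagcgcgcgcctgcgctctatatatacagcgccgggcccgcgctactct
Hist3h2a: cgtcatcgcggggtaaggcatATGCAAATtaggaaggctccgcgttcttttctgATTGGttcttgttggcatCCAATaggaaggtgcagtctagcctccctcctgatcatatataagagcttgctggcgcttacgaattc

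These stretches lie at chr13:23763528-23763667 on the plus strand for Hist1h1a, chr13:21780626-21780765 on the minus strand for Hist1h1b, chr13:23738667-23738806 on the plus strand for Hist1h1c and chr11:58954545-58954684 on the plus strand for Hist3h2a. The H1 promoters of Hist1h1b and Hist1h1c hold the H1 box upstream of CCAAT, and Hist3h2a holds the octamer there instead. A match describes letters only and was not tied to binding of a factor.

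Most of the histone genes were at low levels, and a linker histone gave the largest single share of the signal over all libraries. Of the 45, 22 had a mean below 1 CPM over the 19 libraries, and the median of the means was 1.01 CPM. Hist1h1c, which encodes the linker histone H1.2, averaged 48.1 CPM or 30.8 CPM per kb of exon and made up 44.1% of the summed levels. Its share per library was 63.7 to 74.2% in DMSO 2 h and 65.7 to 68.1% in thapsigargin 2 h, but 8.69 to 27.7% in DMSO 6 h and 3.66 to 36.1% in recovery, the lowest being DMSO 6 h replicate 3 and recovery replicate 1. Hist1h2bc, a core H2B gene, followed with 10.5 CPM or 9.08 CPM per kb, and Hist1h3h, a core H3 gene, stood at 7.51 CPM per kb, or 3.21 CPM per kb without recovery replicate 1.

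The other leading genes of each class were lower. Hist1h4i, an H4 gene, had 4.99 CPM per kb and Hist1h3c, an H3 gene, 4.78 CPM per kb. Hist1h2bk, an H2B gene, had 4.56 CPM per kb. Without recovery replicate 1 these were 4.86, 2.36 and 2.49 CPM per kb, so Hist1h4i then exceeded Hist1h3h while the first places of Hist1h1c (32.1) and Hist1h2bc (8.51) did not change. Hist1h2ae, the second H2A gene by mean level, averaged 0.369 CPM, and Hist2h4, the second H4 gene, 1.01 CPM. The heat map of all 45 genes shows Hist1h1c as the brightest line, the block of H1 genes that is bright in the 2 h drug libraries, and the bright column of recovery replicate 1 in the H2B, H3 and H4 classes.

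**Figure D1:**
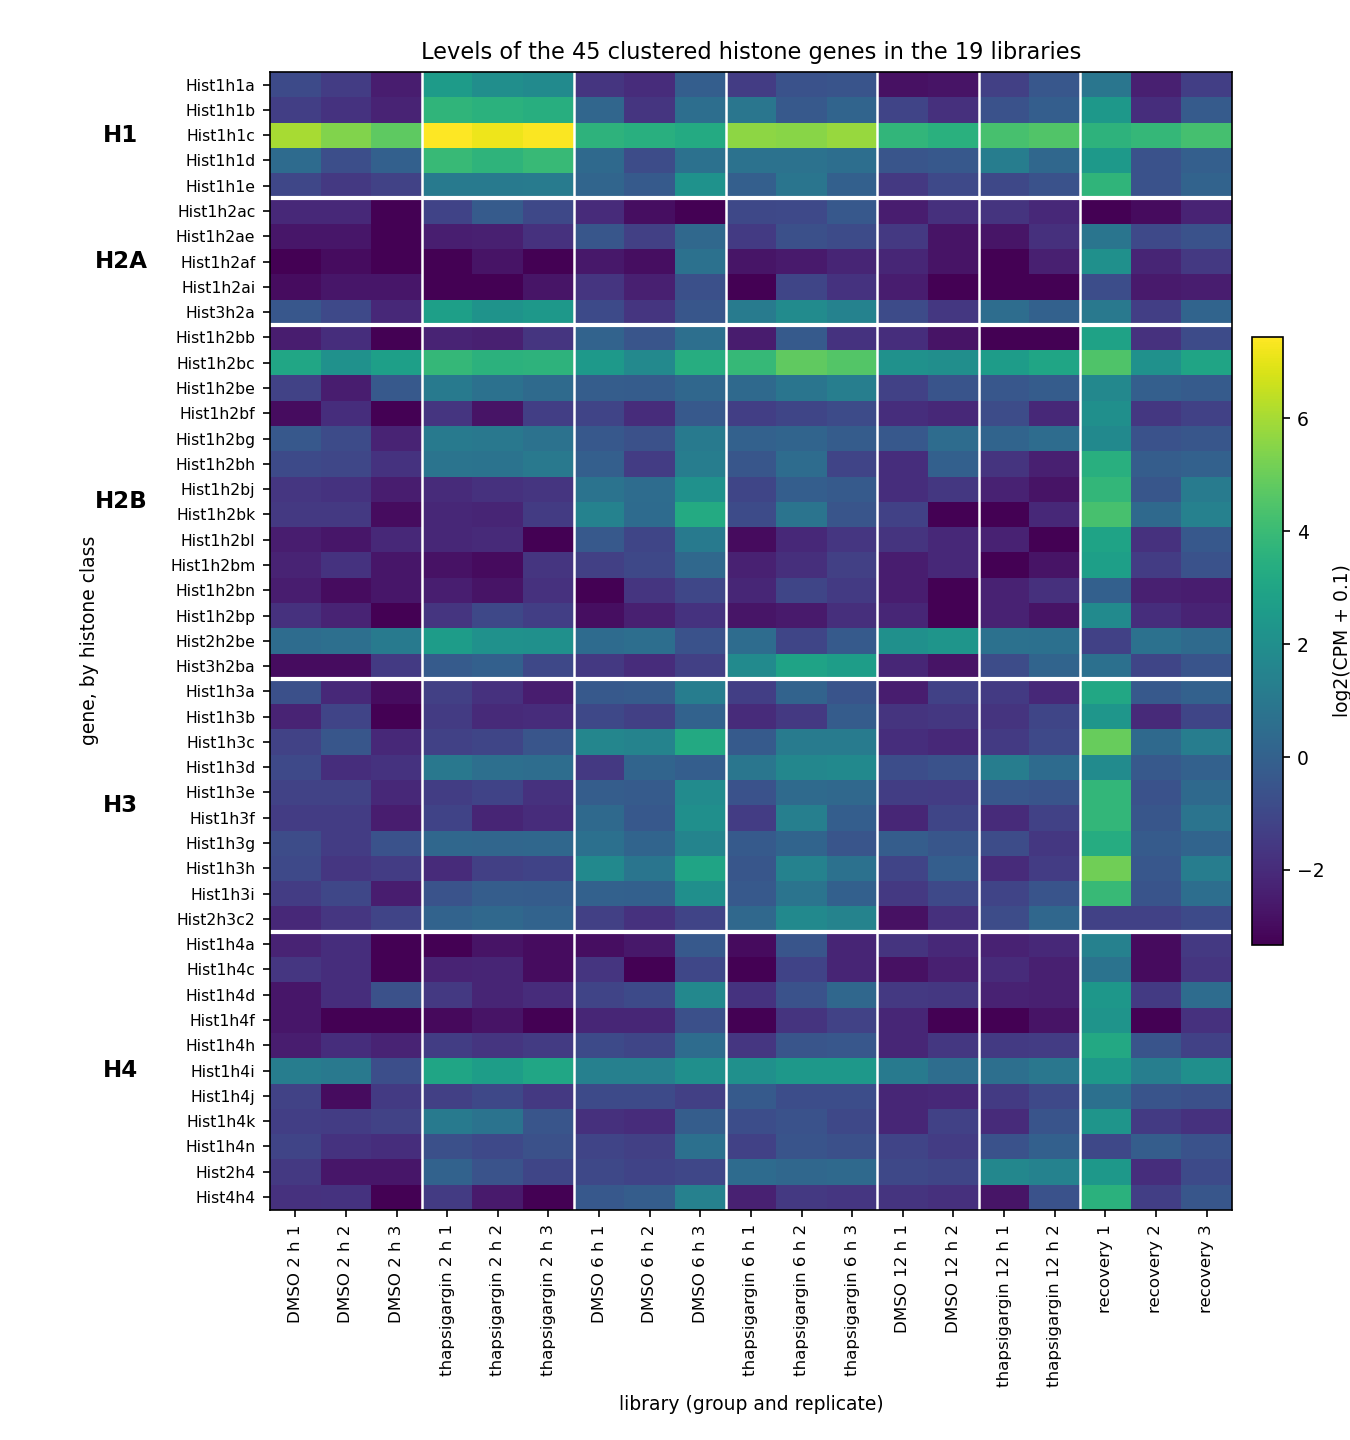
Levels of the 45 genes (lines, grouped by histone class) in the 19 libraries (columns, grouped by treatment), as log2(CPM + 0.1) on the colour scale. Hist1h1c is brightest with thapsigargin for 2 h (143.7 to 173.8 CPM), and recovery replicate 1 stands out from recovery replicates 2 and 3 in most H2B, H3 and H4 genes.

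Thapsigargin for 2 h raised 4 of the 5 linker histone genes. Against DMSO at 2 h, 9 of the 45 genes were higher at an adjusted p below 0.05 (edgeR's quasi-likelihood test, Benjamini-Hochberg over 18039 genes), where 3.01% of all genes tested were higher. No histone gene was lower with edgeR, where 1.51% of all genes were. None was lower at an unadjusted p below 0.05, where 1362 of 18039 genes were, and none with DESeq2, where 691 of 16568 were. The 9 were 4 of 5 H1 genes, 1 of 5 H2A genes, 1 of 14 H2B genes, 2 of 10 H3 genes and 1 of 11 H4 genes. The median log2 difference was 4.01 in H1, 1.62 in H2A, 1.24 in H2B, 0.25 in H3 and 0.63 in H4, and 1.06 over the 45 against -0.04 over all genes. Without DMSO 2 h replicate 3 the median over the 45 was 0.98, with 31 of 45 values above 0, against -0.04 over all genes. In bulk RNA, a change in the share of cells in S phase and a change of histone mRNA per cell cannot be told apart.

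Hist1h1b, the gene of linker histone H1.5, had 0.304, 0.195 and 0.112 CPM in the DMSO 2 h libraries and 13.1, 11.6 and 10.7 CPM in the thapsigargin 2 h libraries. All 3 drug libraries were far above all 3 vehicle libraries, which held 22 counts in sum. It rose by 5.83 on the log2 scale (SE 0.998, adjusted p = 0.00274), a 57.0-fold difference.

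Hist1h1d, encoding H1.3, had 1.27, 0.5 and 0.893 CPM with DMSO and 15, 12.8 and 15.3 CPM with the drug. The 2 ranges did not overlap, and it rose by 4.01 (SE 0.70, adjusted p = 0.00311). Hist1h1a, encoding H1.1, went from 0.442, 0.278 and 0.0838 CPM to 5.89, 3.87 and 3.44 CPM. Its lowest drug library again exceeded its highest vehicle library, and it rose by 4.02 (SE 0.87, adjusted p = 0.0136). Without DMSO 2 h replicate 3, Hist1h1a was at 3.60 with an adjusted p of 0.0593, and Hist1h1b at 5.55 and Hist1h1d at 4.01 were still called.

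Hist1h1c started from the highest vehicle level of the class, with 66.0, 42.2 and 27.4 CPM, and reached 174, 144 and 165 CPM with the drug. The vehicle libraries spread widely, with DMSO 2 h replicate 3 the lowest, yet the groups did not overlap. It rose by 1.83 (SE 0.26, adjusted p = 0.000655), 3.56-fold. The fifth H1 gene, Hist1h1e (H1.4), had 0.387, 0.25 and 0.335 CPM with DMSO and 2.06, 2.03 and 2.1 CPM with the drug, and its log2 difference of 2.66 (SE 0.95, adjusted p = 0.142) did not pass the test. Hist1h1e shares exon sequence on its strand with Hist1h2be and Gm11398, so its counts are uncertain. Without Hist1h1c, the summed H1 level went from 1.68 ± 0.631 to 32.6 ± 3.04 CPM (SD, n = 3 each).

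The core histone genes that rose at 2 h came from every class. Hist3h2a, an H2A gene of the small cluster on chromosome 11, had 0.663, 0.417 and 0.14 CPM with DMSO and 6.72, 4.53 and 5.22 CPM with thapsigargin. It rose by 3.74 (SE 0.61, adjusted p = 0.00198), with no overlap between the groups. Its exons overlap those of Trim17 on the same strand.

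Hist1h4i had 2.26, 1.95 and 0.502 CPM with DMSO and 7.86, 6.2 and 8.26 CPM with the drug. The vehicle value of replicate 3 was well below the other vehicle libraries, and the lowest drug library was above all of them. It rose by 2.24 (SE 0.44, adjusted p = 0.00760). Hist3h2ba, the H2B neighbour of Hist3h2a, rose by 2.68 (SE 0.72, adjusted p = 0.0440) from 11 counts in the vehicle group. The H3 genes Hist1h3d and Hist2h3c2 rose by 2.56 (SE 0.63, adjusted p = 0.0290) and 2.09 (SE 0.51, adjusted p = 0.0289). Over 13 alternatives, which changed the processing or left out libraries, Hist3h2a and Hist1h4i kept their calls in all 13. Hist3h2ba kept its call in 7, and Hist1h3d and Hist2h3c2 in 8 each. Of the windows of 100 bases in Hist2h3c2, 61.6% occur in another gene, and reads aligned at several places count toward no gene.

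**Figure D2:**
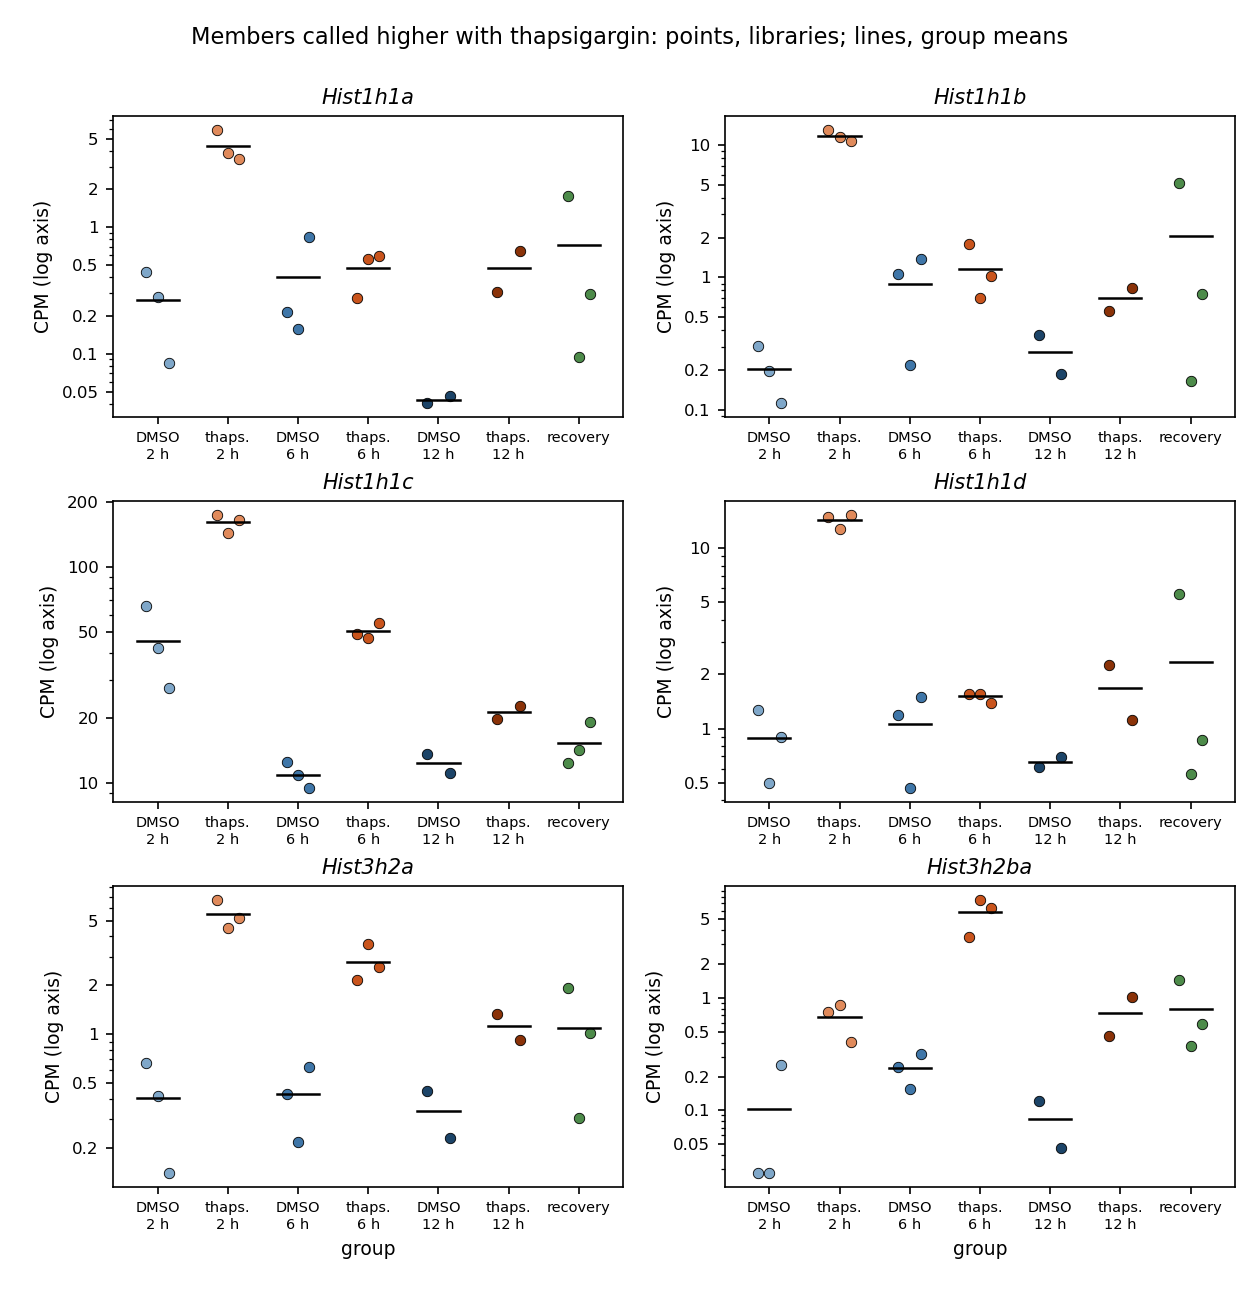
Levels of Hist1h1a, Hist1h1b, Hist1h1c, Hist1h1d, Hist3h2a and Hist3h2ba in CPM on a log axis, by group, with each point a library and each line a group mean. The H1 genes peak with thapsigargin for 2 h, Hist1h1c stays above the vehicle at 6 h, and Hist3h2ba peaks with thapsigargin for 6 h (3.48 to 7.5 CPM).

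After 6 h of thapsigargin, 7 of the 45 genes were higher than with DMSO, where 13.0% of all genes tested were higher. No histone gene was lower with edgeR, where 8.79% of all genes were. At an unadjusted p below 0.05, 4 were lower, where 2516 of 18039 genes were. DESeq2 called 1 lower, where it called 1813 of 17967 genes. The 7 were 1 H1, 2 H2A, 2 H2B and 2 H3 genes. The median log2 difference over the 45 was -0.45 against 0.01 over all genes, and 16 of 45 values were above 0. Without DMSO 6 h replicate 3 the direction turned, with a median of 0.48 and 31 of 43 values above 0, against 0.08 over all genes.

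Hist1h1c had 12.4, 10.9 and 9.45 CPM with DMSO for 6 h and 48.9, 46.6 and 54.9 CPM with the drug. Both groups were narrow and far apart, and it rose by 2.20 (SE 0.27, adjusted p = 2.7e-05). Hist3h2ba had 0.244, 0.156 and 0.316 CPM with DMSO and 3.48, 7.5 and 6.35 CPM with thapsigargin. Its drug libraries differed among themselves but all exceeded the vehicle, and it rose by 4.59 (SE 0.70, adjusted p = 0.000188). Hist3h2a rose by 2.71 (SE 0.60, adjusted p = 0.00390), from 0.427, 0.218 and 0.633 CPM to 2.14, 3.58 and 2.61 CPM, again without overlap.

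Hist2h3c2 had 0.305, 0.187 and 0.356 CPM with DMSO for 6 h and 1.16, 3.33 and 2.69 CPM with the drug, and rose by 3.07 (SE 0.53, adjusted p = 0.000534). Hist1h2bc had 5.59, 3.24 and 10.2 CPM with DMSO and 14.9, 27.8 and 23.3 CPM with the drug, and rose by 1.79 (SE 0.50, adjusted p = 0.0169). Its highest vehicle library was DMSO 6 h replicate 3. Hist1h3d and the H2A gene Hist1h2ac rose by 1.99 (SE 0.60, adjusted p = 0.0249) and 2.88 (SE 0.92, adjusted p = 0.0339). Without DMSO 6 h replicate 3, Hist1h2ac was at 2.39 and not called. Without thapsigargin 6 h replicate 2, the count of 7 fell to 4, where 2088 of 17934 genes were higher.

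No linker histone gene other than Hist1h1c was called at 6 h, where 13.0% of all genes were higher and 8.79% lower. Without Hist1h1c, the summed H1 level was 3.51, 1.56 and 8.11 CPM with DMSO and 4.49, 4.51 and 3.88 CPM with the drug. Every drug library was thus above DMSO 6 h replicates 1 and 2 and below replicate 3. Hist1h1b had 1.07, 0.218 and 1.38 CPM with DMSO and 1.79, 0.695 and 1.02 CPM with the drug, and its log2 difference of 0.41 (SE 0.83, adjusted p = 0.786) did not pass the test. Hist1h1d had 1.19, 0.467 and 1.5 CPM with DMSO against 1.56, 1.56 and 1.39 CPM, with a log2 difference of 0.52 (SE 0.65, adjusted p = 0.643). In both genes the drug and vehicle ranges overlapped.

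The change of the drug response from 2 h to 6 h was itself tested as a difference of differences. It was negative and past the threshold for 2 genes, Hist1h1b at -5.42 (SE 1.26, adjusted p = 0.0227) and Hist1h1d at -3.49 (SE 0.93, adjusted p = 0.0455), where 1.87% of all genes were lower. No histone gene had a larger response at 6 h with edgeR, where 2.12% of all genes did. None did at an unadjusted p below 0.05, where 1603 of 18039 genes did, and none with DESeq2, where 913 of 17967 did. For Hist1h1a the value was -3.74 (SE 1.19, adjusted p = 0.0977). For Hist1h1c it was 0.37 (SE 0.36, adjusted p = 0.762).

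After 12 h, with 2 libraries a group, Hist2h3c2 was the 1 gene called higher with thapsigargin, where 6.29% of all genes were. It had 0.0405 and 0.184 CPM with DMSO and 0.459 and 1.11 CPM with the drug, or 5 and 33 counts in sum, and rose by 2.80 (SE 0.74, adjusted p = 0.0183). Without DMSO 12 h replicate 1 or thapsigargin 12 h replicate 2 it was not called. No histone gene was lower with edgeR, where 6.77% of all genes were. At an unadjusted p below 0.05, 1 was lower, where 2170 of 18039 genes were. DESeq2 called 1 lower, where it called 1512 of 17617 genes.

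Hist1h1c had 13.6 and 11.2 CPM with DMSO for 12 h and 19.7 and 22.6 CPM with the drug, and its difference of 0.77 (SE 0.32, adjusted p = 0.138) did not pass the test. Hist2h4, an H4 gene, had 0.405 and 0.369 CPM with DMSO and 3.06 and 2.63 CPM with the drug, with a difference of 2.86 (SE 1.11, adjusted p = 0.112). The groups did not overlap for either gene, but with 2 libraries a group this carries little weight. Among the 45 it held for 18 that were higher and 8 that were lower, and the share over all genes was not counted. No gene's response changed from 6 h to 12 h with edgeR, where 0.0388% of all genes had a larger and 0.532% a smaller response. At an unadjusted p below 0.05 there were 0 larger and 1 smaller, where 386 and 1049 of 18039 genes were. DESeq2 likewise gave 0 larger and 1 smaller, where 96 and 341 of 15169 genes were. The fit shares 1 estimate of the spread over all groups. Without DMSO 2 h replicate 3 and recovery replicate 1 it called 6 of 44 histone genes higher at 12 h, where 2129 of 17810 genes were. The 6 were Hist1h1a (3.35), Hist1h1c (0.76), Hist1h3d (1.72), Hist2h3c2 (2.80), Hist2h4 (2.85) and Hist3h2ba (3.04).

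Recovery was compared with 6 h of drug, using the same thapsigargin 6 h libraries as above. In recovery 4 of the 45 genes were lower, where 13.9% of all genes were: Hist1h1c, Hist1h2ac, Hist2h3c2 and Hist3h2ba. Hist1h1c had 12.4, 14.2 and 19.1 CPM in recovery and fell by 1.71 (SE 0.26, adjusted p = 0.000183). Hist3h2ba had 1.45, 0.375 and 0.591 CPM and fell by 2.94 (SE 0.64, adjusted p = 0.00287). Hist2h3c2, at 0.322, 0.328 and 0.43 CPM, fell by 2.70 (SE 0.52, adjusted p = 0.00117).

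For each of these 3 genes, every recovery library was below every 6 h drug library. Hist1h2ac had 5 counts in recovery against 52. Without recovery replicate 1, 8 of 44 histone genes were lower, where 2861 of 17888 genes were. The 8 were the 4 above and Hist1h2bc (-1.88), Hist1h3d (-1.76), Hist2h4 (-2.01) and Hist3h2a (-2.07).

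In the same comparison 10 genes were higher in recovery, where 11.6% of all genes were, and these rest on recovery replicate 1. They were the H2B genes Hist1h2bj, Hist1h2bk, Hist1h2bl, Hist1h2bm and Hist1h2bp, the H3 genes Hist1h3c, Hist1h3g and Hist1h3h, and the H4 genes Hist1h4h and Hist4h4. Hist4h4 had 0.101, 0.243 and 0.227 CPM with thapsigargin for 6 h and 11.7, 0.305 and 0.645 CPM in recovery, a log2 difference of 4.41 (SE 1.33, adjusted p = 0.0223). Hist1h3h had 0.63, 2.64 and 1.53 CPM with the drug and 34.9, 0.656 and 2.28 CPM in recovery. Recovery replicate 1 was far above the other recovery libraries, which for Hist1h3h lay within the range of the drug group.

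Hist1h2bl had 7.41, 0.188 and 0.672 CPM in recovery and Hist1h2bm 6.61, 0.281 and 0.564 CPM, with log2 differences of 4.32 (SE 1.24, adjusted p = 0.0168) and 3.58 (SE 1.06, adjusted p = 0.0205). In both, replicate 1 was again the high one. Without it none of the 10 was called: Hist1h2bl was at 1.71, Hist4h4 at 1.32, Hist1h2bm at 1.1, Hist1h3c at 0.05 and Hist1h3h at -0.12. The median over the genes tested then went from 1.79 to -0.38. With total counts in place of TMM for scaling, 4 genes were higher and 6 lower, where 1101 and 2241 of 18039 genes were. Rn7sk (12.7 CPM) and the mitochondrial share (14.9%) were also high in that library, and their part in the result was not tested.

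Against DMSO 6 h, no histone gene was called in recovery in either direction with edgeR, where 0.205% of all genes were higher and 0.122% lower. None was called with DESeq2, where 257 of 15868 genes were higher and 167 lower. At an unadjusted p below 0.05, 4 histone genes were higher and 0 lower, where 1102 and 664 of 18039 genes were. The median was 1.24, with 41 of 45 values above 0, and turned to -0.72, with 9 of 44 above 0, without recovery replicate 1. Hist1h1c differed by 0.48 (SE 0.26, adjusted p = 0.587).

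The vehicle libraries also differed with time. From DMSO 2 h to DMSO 6 h, 15 histone genes were higher, where 24.6% of all genes were, and 1 was lower, where 25.0% were. The 15 were 1 H1 gene (Hist1h1e), 2 H2A genes (Hist1h2ae and Hist1h2af), 4 H2B genes, 6 H3 genes and 2 H4 genes (Hist1h4n and Hist4h4), with log2 differences of 1.53 to 5.31. Hist1h2bk had 0.248, 0.25 and 0.0279 CPM at 2 h and 2.62, 1.25 and 9.45 CPM at 6 h, a rise of 4.62 (SE 1.19, adjusted p = 0.00548). Hist1h2bj rose by 3.80 (SE 0.90, adjusted p = 0.00346) from 0.221, 0.195 and 0.0838 CPM to 1.62, 1.31 and 4.23 CPM. In both genes DMSO 6 h replicate 3 was the highest, and all 6 h libraries were above all 2 h libraries.

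Hist1h3h rose by 3.77 (SE 1.12, adjusted p = 0.0118), from 0.414, 0.222 and 0.279 CPM to 3.39, 1.71 and 7.59 CPM. Without DMSO 6 h replicate 3 the count of 15 fell to 4, where 2988 of 17916 genes were higher. When gene length was fitted as an offset in each library it was 4 as well, where 3676 of 18021 genes were higher. An alternative chosen after seeing the data left out DMSO 6 h replicate 3 and recovery replicate 1, the libraries highest in Rn7sk in their groups. There 39 histone genes were tested and 15 were higher, where 4530 of 17850 genes were, with Hist1h2bk at 3.42 and Hist1h3h at 3.03. Of a list of 18 non-polyadenylated RNAs, 3 were tested, and of these Rnu12 and Snord17 fell in the same comparison, by 5.59 and 3.90. The whole list summed to 1.15 CPM on average in DMSO 2 h and 1.14 CPM in DMSO 6 h. The part of these RNAs in the histone differences was not tested. The 1 histone gene that fell was Hist1h1c, by 2.05 (SE 0.27, adjusted p = 8.6e-05), from the 2 h vehicle values above to 12.4, 10.9 and 9.45 CPM. The drug differences at 2 h and 6 h thus stand on different vehicle levels.

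From DMSO 6 h to DMSO 12 h, 3 genes were lower, where 16.8% of all genes were, and 1 was higher, where 18.7% were. Hist1h3c went from 2.96, 2.71 and 9.25 CPM to 0.162 and 0.138 CPM and fell by 5.00 (SE 1.38, adjusted p = 0.0145). Hist1h2bk fell by 4.68 (SE 1.47, adjusted p = 0.0251) and Hist1h2bj by 3.58 (SE 1.09, adjusted p = 0.0219), and the 12 h groups held 7 to 9 counts in sum for these 3 genes. Hist2h2be, an H2B gene of the chromosome 3 cluster, had 1.25, 1.37 and 0.553 CPM at 6 h and 4.13 and 4.84 CPM at 12 h, and rose by 2.07 (SE 0.51, adjusted p = 0.00892). Of the 3 tested non-polyadenylated RNAs, Rnu12 and Snord17 rose in the same comparison, by 7.41 and 4.63. Their whole list summed to 1.14 CPM on average in DMSO 6 h and 2.13 CPM in DMSO 12 h. The part of these RNAs in the histone differences was not tested. Without DMSO 6 h replicate 3, 1 histone gene was lower, where 1156 of 17916 genes were. Without DMSO 12 h replicate 1 or 2, 0 were lower, where 341 of 19458 and 342 of 19432 genes were. Without DMSO 12 h replicate 2, Hist2h2be was not called.

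Long-tailed and short-tailed genes are set side by side as a description, since the grouping was made with these results known. At 2 h of drug, 7 of 21 long-tailed genes were higher (median log2 difference 2.09) and 2 of 11 without an annotated loop (median 1.02), where 3.01% of all genes were. Of the 13 short-tailed genes 0 were higher with edgeR, and their median was 0.30. With a share of 3.01% over all genes, 0 of 13 does not set them apart. At an unadjusted p below 0.05 or with DESeq2, 0 were higher as well, where 1691 of 18039 and 1002 of 16568 genes were. At 6 h, 6 of 21 long-tailed genes were higher (median 0.52), where 13.0% of all genes were. All 13 short-tailed genes had values below 0 (median -1.0). Of them 2 were at an unadjusted p below 0.05, where 2516 of 18039 genes were lower. Among the 13, edgeR called 0 lower, where 8.79% of all genes were, and DESeq2 called 0, where 1813 of 17967 genes were. Without DMSO 6 h replicate 3, 6 of the 13 were above 0 (median -0.23). In that fit 5 of 21 long-tailed genes were called higher (median 0.86), where 1894 of 17916 genes were. In recovery against thapsigargin 6 h, 1 of 21 long-tailed genes was higher and 4 were lower (median 0.61), where 13.9% of all genes were lower. All 13 short-tailed genes had values above 0 and 7 were called higher (median 2.73), where 11.6% of all genes were. These rises rest on recovery replicate 1, where short-tailed genes had a median ratio of 15.6 over replicates 2 and 3. Without it 8 of 13 short-tailed genes were above 0 (median 0.15) and none was called, and 7 long-tailed genes were lower (median -0.61), where 2861 of 17888 genes were. The 2 called genes without an annotated loop at 2 h were Hist1h1a and Hist1h1b.

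**Figure D3:**
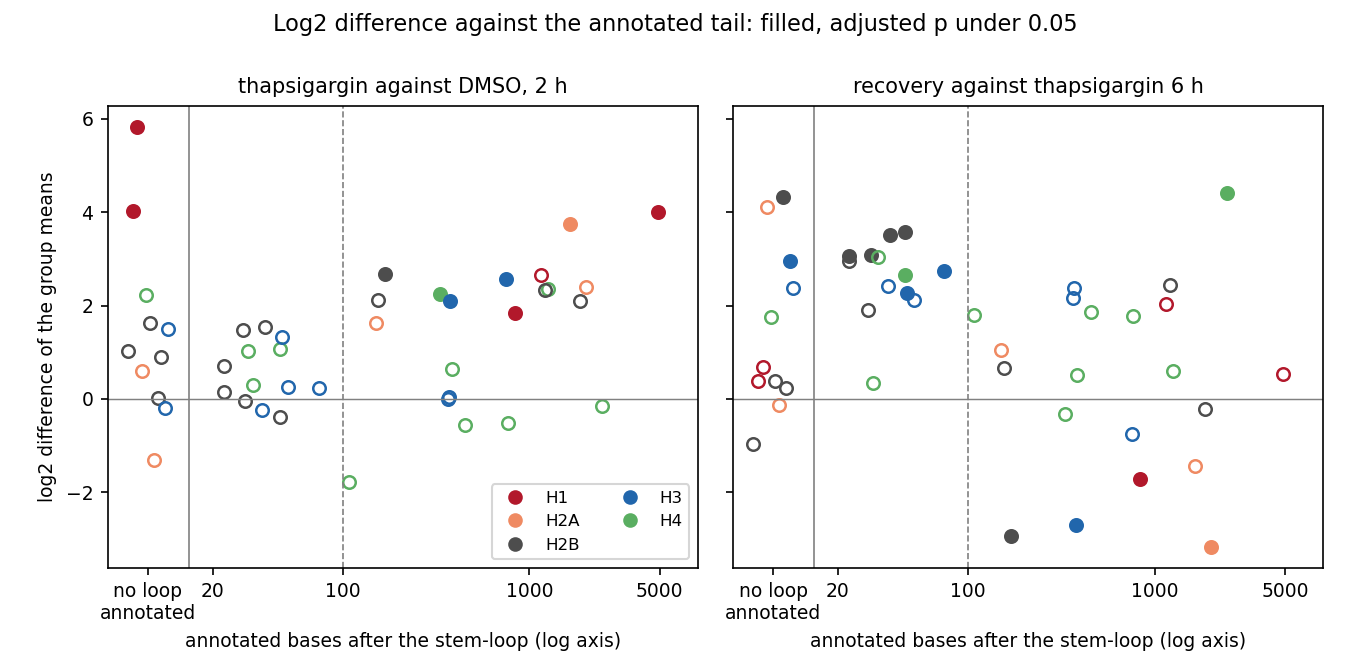
Log2 difference of each of the 45 genes against the number of annotated bases after the stem-loop (log axis), for thapsigargin against DMSO at 2 h and for recovery against thapsigargin 6 h. Each point is a gene, coloured by histone class and filled where it was called, genes without an annotated loop stand at the left, and the dashed line marks 100 bases. The filled points of the drug comparison lie to the right of the line or in the left column, where 3.01% of all genes were called higher. In the recovery comparison 7 of 13 short-tailed genes are filled, where 11.6% of all genes were called higher, and these rest on recovery replicate 1.

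Summed over the 13 short-tailed genes, the level in CPM was 2.82, 2.86 and 1.17 in DMSO 2 h and 3.72, 3.35 and 4.28 in thapsigargin 2 h. It was 12.4, 9.41 and 35.7 in DMSO 6 h and 3.83, 9.65 and 8.11 in thapsigargin 6 h. It was 2.88 and 2.40 in DMSO 12 h, 2.65 and 2.77 in thapsigargin 12 h, and 123, 6.87 and 11.8 in recovery. Recovery replicate 1 and DMSO 6 h replicate 3 were the highest libraries, as they were for Rn7sk within their groups.

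Summed over the 20 long-tailed genes other than Hist1h1c, the level was 8.59, 6.03 and 4.75 CPM in DMSO 2 h and 43.8, 36.7 and 40.1 CPM in thapsigargin 2 h. At 6 h it was 13.1, 10.7 and 33.7 CPM with DMSO and 21.7, 37.8 and 32.3 CPM with the drug, and at 12 h 7.14 and 8.26 CPM against 15.2 and 15.2 CPM. Recovery had 106, 10.3 and 18.0 CPM. The long-tailed sum was thus higher with drug at 2 h in every library, while its 6 h ranges overlapped through DMSO 6 h replicate 3.

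**Figure D4:**
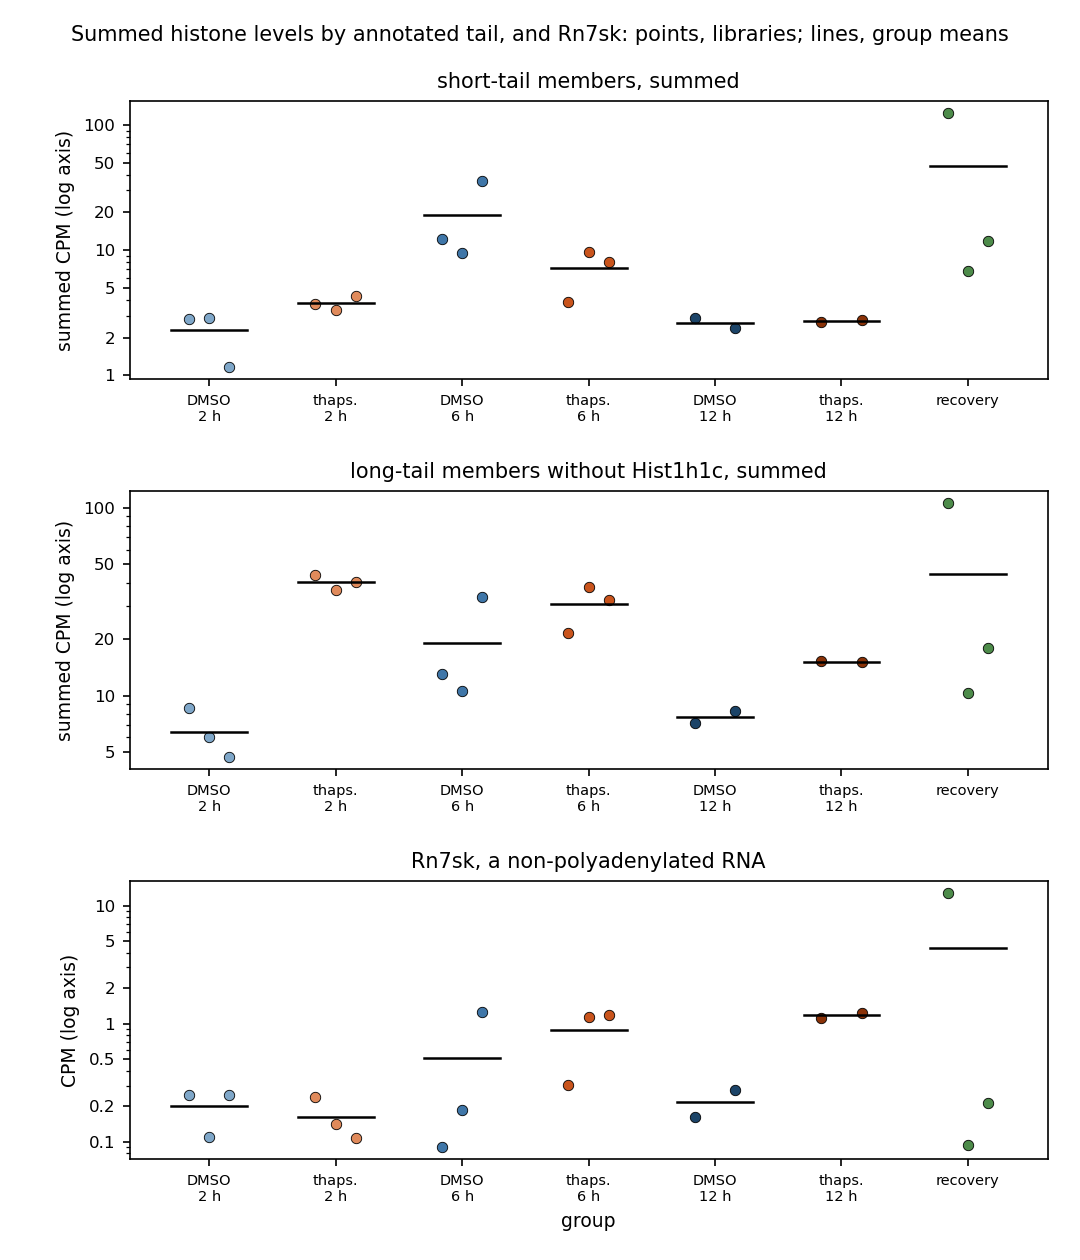
Summed CPM of the 13 short-tailed genes, of the 20 long-tailed genes without Hist1h1c, and CPM of Rn7sk, on log axes by group, with each point a library. Recovery replicate 1 is the highest point of all 3 panels (123, 106 and 12.7 CPM), and the long-tailed sum is above the vehicle in every drug library at 2 h and 12 h.

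Class sums over all genes show the same libraries. H1 stood at 46.9 ± 20.01 CPM in DMSO 2 h and 193 ± 18.1 CPM in thapsigargin 2 h (SD, n = 3 each), and at 15.3 ± 2.60 and 54.4 ± 3.95 CPM at 6 h. H3 stood at 2.73 ± 0.754 and 5.98 ± 0.232 CPM at 2 h and at 19.3 ± 14.1 and 13.4 ± 5.89 CPM at 6 h. In DMSO 6 h the H3 sum was 12.4, 9.97 and 35.5 CPM, and without replicate 3 its mean was 11.2 CPM, below that of the drug. In recovery the SD of H3 (73.0 CPM) exceeded its mean (51.4 CPM), and H2B (45.1 ± 52.3 CPM) and H4 (21.9 ± 25.9 CPM) did likewise.

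Genes that act with the clustered histones were measured from fixed lists. Of 32 genes of S phase entry and DNA replication, 2 were lower at 2 h of drug, 20 at 6 h and 22 at 12 h, and 18 were higher in recovery against thapsigargin 6 h. The shares of all genes that were lower at these times were 1.51%, 8.79% and 6.77%, and 11.6% were higher in recovery. At 6 h these included Ccne1 (cyclin E1), which fell by 3.25, Tk1 (thymidine kinase), by 2.63, and E2f2, an activator of S phase genes, by 2.38. At 2 h, Ccne1 and the phosphatase gene Cdc25a fell by 0.75 and 0.76. The summed level of the 32 genes was 4057 and 3296 CPM on average with DMSO and drug at 2 h, 3637 and 1898 CPM at 6 h, and 4229 and 1739 CPM at 12 h. Its median log2 difference was -0.85 at 6 h and -1.27 at 12 h, against 0.01 over all genes at both times.

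Of 24 tested genes of histone transcription, 3′ end processing and histone mRNA decay, 4 were called with 6 h of drug, 4.17% of them higher and 12.5% lower, against 13.0% and 8.79% of all genes. The 1 that was higher was Hinfp (0.67), an activator of H4 genes, and the 3 that were lower were Zfp473 (-1.22), a component of the U7 processing machinery, Pou2f1 (-0.71), which encodes Oct-1, and Srrt (-0.47). Of 22 tested chaperone and assembly genes, 3 were lower at 6 h (13.6%) and 1 was higher (4.55%), Ubn1 (0.63), against the same 8.79% and 13.0% of all genes. Those lower were Nasp (-1.62), a carrier of H3 and H4, Tonsl (-1.38) and Asf1b (-1.23), an H3 and H4 chaperone of dividing cells.

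The replacement histones, which are encoded outside the clusters and mostly by polyadenylated mRNA, gave larger sums than the clustered genes. They had 2062 and 2416 CPM on average with DMSO and drug at 2 h for 11 genes, where the 45 clustered genes summed to 63.4 ± 23.4 and 241 ± 22.4 CPM (SD, n = 3 each). Because the RNA was selected with poly(T), these sums do not compare the total mRNA of the 2 sets. H1f0, the replacement linker histone H1.0, was the 1 of the 11 that rose at 2 h (1.09, adjusted p = 0.0146). Of all genes, 3.01% were higher then. H1f0 rose at 6 h as well (1.26, adjusted p = 0.00121), and its response fell from 6 h to 12 h (-1.86, adjusted p = 0.0318), where 0.532% of all genes had a smaller response. H3f3b rose (0.72) and H3f3a fell (-1.32) at 6 h, though both encode H3.3. The macroH2A gene H2afy2 fell at 6 h (-1.24) and at 12 h (-1.24). In all, 2 of the 11 were higher and 2 lower at 6 h, where 13.0% and 8.79% of all genes were. At 12 h 0 were higher and 2 lower, where 6.29% and 6.77% of all genes were.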

How the data were processed

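The deposited files hold raw counts of reads per gene, 1 file per library. Trim Galore, the aligner STAR 2.5.3a, bedtools 2.31.0, DESeq2 and the build mm10 are listed in the submitters' processing notes without their roles. Which program counted the reads, with which strand setting and annotation, is not given in the sources used here. The 5 lines of unassigned reads were left out. Among them, reads aligned at several places took 11.9% of all reads in DMSO 2 h replicate 3, 7.11% in DMSO 6 h replicate 3, 15.4% in recovery replicate 1 and 3.7 to 5.6% elsewhere. Those reads count toward no gene in the files.

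Of 55401 identifiers, 55141 matched GENCODE M21. Counts were scaled by TMM and filtered with filterByExpr (18039 genes) in edgeR 4.0.16, R 4.3.3. A quasi-likelihood fit with 1 mean per group over all 19 libraries (common biological coefficient of variation 0.352) gave 9 contrasts, called at an adjusted p below 0.05. DESeq2 1.42.0 served as an alternative. The method was tested on simulated data. Of the 45 members, 11 share at least 50% of their windows of 100 bases with another gene.

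Members and lists were chosen with earlier results of these data known. Named genes were the 2 highest members of each class and, per contrast, up to 3 called rises and falls with a mean of at least 1 CPM. Others were named where 5 or fewer were counted. Of related lists, up to 4 called genes per contrast were named. Stem-loops come from GENCODE M21 transcripts and promoters from RefSeq.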

Additional observations from a re-analysis of the deposited data

Results flagged for a closer look

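The drug response of 2 linker histone genes differed between 2 h and 6 h by the test of the difference itself. For Hist1h1b the response at 6 h minus that at 2 h was -5.42 on the log2 scale, and over 19 alternatives it ranged from -5.91 to -4.97, with 12 of them keeping the call. For Hist1h1d it was -3.49, with a range of -3.87 to -3.15 and 7 of 19 alternatives keeping the call.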

How the results depend on the processing

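Low counts limit most members. Over the 53 called differences of single genes, 498 alternative values kept their call, 188 lost it and 6 reversed. Those 6 were Hist1h3h and Hist1h4h in recovery against thapsigargin 6 h, at -0.117 and -0.124 without recovery replicate 1, -0.119 and -0.120 without the 2 libraries of high mitochondrial share, and -0.121 and -0.122 without DMSO 6 h replicate 3 and recovery replicate 1 together. When single libraries were left out, Hist1h3h ranged from -0.117 to 3.53 and Hist1h4h from -0.124 to 3.21. For thapsigargin against DMSO at 2 h, 9 higher became 14 with DESeq2, 15 without the 2 libraries of high mitochondrial share, 19 without DMSO 6 h replicate 3 and recovery replicate 1, each highest in Rn7sk in its group (chosen after seeing the data), and 5 to 8 when single libraries were left out, with 5 without DMSO 2 h replicate 2 or thapsigargin 2 h replicate 1. Calls over all genes moved too, from 543 higher to 1002 with DESeq2, 1226 and 1421 in the 2 library sets and 261 to 446 without single libraries. At 6 h, 7 higher became 4 to 7 without single libraries, where 2341 over all genes became 1730 to 2088. The 0 lower became 1 with DESeq2, 4 without the filter and 6 without the high-mitochondrial libraries, where 1585 over all genes became 1813, 1336 and 3063. At 12 h, 1 higher became 3 with DESeq2, 2 with total-count scaling, 3 without the filter, 2 with the length offset, 6 without the high-mitochondrial libraries, 5 without those highest in Rn7sk in their groups and 0 to 1 without single libraries. The 0 lower became 1 with DESeq2 and in each of these 2 library sets, where 1222 over all genes became 1512, 2410 and 2146. The 1134 higher over all genes became 1538 with DESeq2, 796 with total-count scaling and 823 without the filter. They became 1255 with the length offset, 2129 and 1915 in the library sets and 455 to 616 without single libraries.

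For recovery against thapsigargin 6 h, 10 higher became 17 with DESeq2, 4 with total-count scaling, 18 without the filter, 16 with the length offset, 0 in each library set and 0 to 19 without single libraries. It was 0 without recovery replicate 1 or thapsigargin 6 h replicate 1, 2 without thapsigargin 6 h replicate 2 and 3 without thapsigargin 6 h replicate 3. Over all genes the 2090 higher became 2588 with DESeq2, 1101 with total-count scaling, 2106 without the filter and 2927 with the length offset. They became 2953 and 2758 in the library sets and 1452 to 2495 without single libraries. The 4 lower became 8 in each library set and 3 to 8 without single libraries, where 2511 over all genes became 3296 and 3167, and 2053 to 2861. From DMSO 2 h to 6 h, 15 higher became 4 with the length offset and 4 to 18 without single libraries, with 4 without DMSO 6 h replicate 3 and 8 without any 1 of the 2 h libraries. The 4443 higher over all genes became 3676 with the length offset and 2988 to 4360 without single libraries. From DMSO 6 h to 12 h, 1 higher became 2 with the length offset and 0 to 1 without single libraries. The 3 lower became 10 with DESeq2, 11 without the filter, 1 with the length offset, 17 and 6 in the library sets and 0 to 4 without single libraries. The 3368 higher over all genes became 2528 with the length offset and 1188 to 3347 without single libraries. The 3025 lower became 3692 with DESeq2, 2966 without the filter, 2062 with the length offset and 5105 and 3606 in the library sets. Without single libraries they became 341 to 3259. For the response at 6 h minus that at 2 h, 2 lower became 4 with DESeq2, 4 without the filter, 1 with the length offset, 7 and 5 in the library sets and 0 to 2 without single libraries. The 337 lower over all genes became 644, 219, 484, 1145 and 1017, and 207 to 378 in the same order. For 12 h minus 6 h, 0 lower became 1 with DESeq2 and 1 without the high-mitochondrial libraries, where 96 over all genes became 341 and 531. These counts over all genes are out of 15169 to 19458 tested, or 34137 without the filter. Fewer libraries were fitted in the library sets. For the other settings the cause was not tested.

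With the replicate number as a block, 10 genes higher in recovery against thapsigargin 6 h became 1, where 2090 over all genes became 1704. The pairing of the numbers was not borne out: same-numbered libraries correlated at -0.64 to 0.62, 4 of 52 pairs were above 0.1, and 5 libraries correlated best with their own number. With total-count scaling the median log2 difference of all genes was 0.17 at 2 h, 0.14 at 6 h and 0.29 from DMSO 6 h to 12 h. With TMM these medians were -0.04, 0.01 and 0.002.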
